A study of Aspergillus luchuensis with 6 samples.

Results

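Scaffold DF126470.1 is a piece of the genome assembly of Aspergillus luchuensis mut. kawachii, a filamentous fungus used to ferment starch for distilled spirits. It was followed from end to end by the transcription start sites that were used on it. All positions of the deposited table that carry this scaffold's name were taken, 172278 in all, from 786 to 544839, and 68054 of them held at least 1 tag. Neighbouring positions were joined into 446 tag clusters, of 21824 in the whole table. The scaffold was chosen by the level difference between the genotypes in these same libraries, in which a block of start sites was higher in the laeA disruptant. Levels, fold changes and counts of calls between the genotypes are therefore given as a description, with no p-value. The method was CAGE, in which capped RNAs are reduced to short tags read from their 5′ ends. Tags mapped to a position thus count the capped RNAs in the sample that begin there. The control group held 3 libraries of strain ctrl345, labelled as control. The other group held 3 libraries labelled as a laeA disruptant, which also carry the strain name sirD, whose meaning is not clear. All 6 came from mycelia grown in shaken culture at 30 °C, for 36 h in M medium and then 12 h in CAP medium. Each genotype is represented by 1 strain, no label says whether the strains share a parent, and none says that the libraries of a group came from separate cultures, so the spread between libraries may be technical. The table pairs no position with a gene, so laeA's own level was not analysed and the genotype labels were not checked through it.

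LaeA is a putative methyltransferase that acts with velvet proteins in the nucleus and is known in Aspergillus as a global regulator of secondary metabolism. The genes for a fungal secondary metabolite often lie side by side and are switched on and off together. Loss of LaeA is known to lower the expression of many such gene clusters and to raise that of others. The question addressed along the scaffold was where start site use differed between the genotypes, how sharply such stretches ended, and how far single libraries departed from their group. Gene names and base sequences of the scaffold were not used here, so start sites are given by position (counted from 1) and strand. Minus-strand positions may follow another counting convention than plus-strand ones.

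The 6 libraries held 14.8 to 19.3 M tags, and the scaffold took 1.61% to 1.93% of each. Its clusters held 93.0% of its tags. Levels are in CPM, tag counts scaled to the effective library size, where 3 tags in 1 library correspond to 0.153 to 0.206 CPM. Libraries also differed in a way the labels do not name. In the log2 ratio of tags up to and beyond each cluster's median position, the leading component (33.5% of the variance over 19437 clusters) put controls 1 and 2 and disruptant 1 on one side and control 3 and disruptants 2 and 3 on the other. Totals are therefore also given within these sets of libraries.

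All 446 clusters passed the filter on low counts. In the fit over all clusters of the table (edgeR quasi-likelihood, calls at an adjusted p under 0.05), 24 of them were called higher in the disruptant, where the background over all tested clusters was 4.1%. A further 19 were called lower, where the background was 4.0%. Of the 24 higher clusters, 17 lay in 1 block at 125712 to 150457. Of the 19 lower ones, 9 lay in a second stretch at 325445 to 333649, which starts 174987 bp beyond the block's end. The 410 clusters in neither stretch had a median log2 fold change of -0.02, beside -0.01 over all tested clusters. Of them, 364 (88.8%) changed by less than 1 on the log2 scale, beside 82.95% of all tested clusters. Both stretches were set apart by their changes, so a higher share in the remainder partly follows from that. The count of lower clusters changed more than that of higher ones when single libraries were left out. It was 10, 11 and 25 without control 1, 2 or 3, and 12, 11 and 8 without disruptant 1, 2 or 3. Calls over the whole table, in both directions together, also changed, from 1768 with all libraries to between 745 and 2254. In bulk mycelium, a change in the number of cells that use a start site and a change in use per cell cannot be told apart. RNA stability was not measured, so a change in it cannot be told apart from these either.

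**Figure D1:**
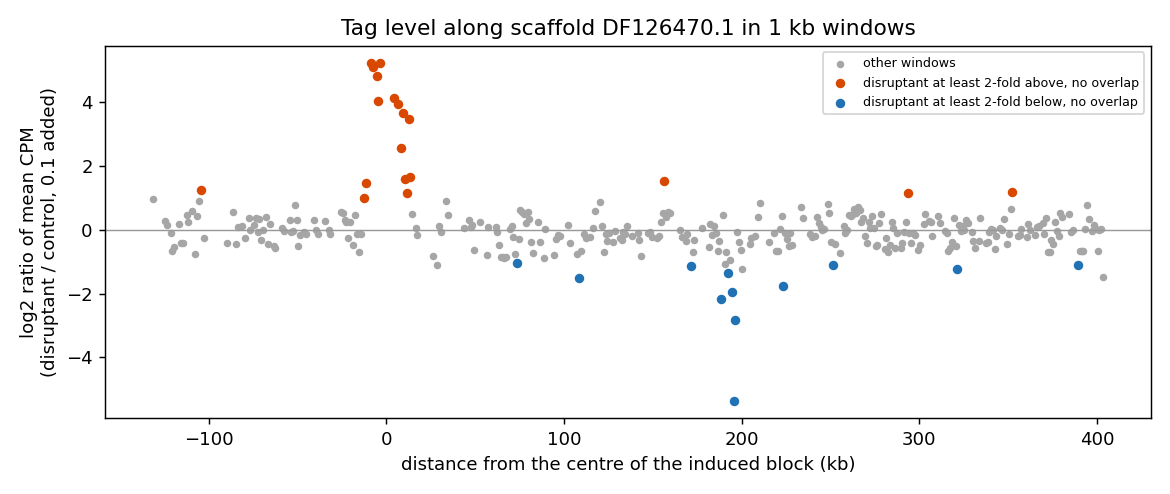
Log2 ratio of mean CPM (disruptant over control, 0.1 CPM added) in 1 kb windows of scaffold DF126470.1 with at least 1 CPM, against distance in kb from the centre of the induced block. Coloured points are windows in which the genotypes' libraries did not overlap and the means differed at least 2-fold. Of the 19 high windows 15 lie at the block, and of the 12 low windows 4 lie in the stretch at 325445 to 333649, with the others scattered along the scaffold.

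The induced block spans 24746 bp and holds 22 clusters, 13 on the plus and 9 on the minus strand. The summed level of its clusters was 42.2, 115 and 66.6 CPM in controls 1, 2 and 3 (mean 74.7 ± 37.2, SD, n = 3). In disruptants 1, 2 and 3 it was 854, 1744 and 1020.0 CPM (mean 1206 ± 473, SD, n = 3). The genotypes did not overlap: the lowest disruptant was 7.41-fold above the highest control, and the means differed 16.2-fold. Within the set of controls 1 and 2 and disruptant 1 the difference was 10.8-fold, and within the set of control 3 and disruptants 2 and 3 it was 20.7-fold. In each of the 22 clusters every disruptant library was above every control library, a pattern found in 16.3% of all tested clusters. The block and its edges were chosen by the level difference in these same libraries, so this separation partly follows from that choice. The clusters' log2 fold changes ran from 1.05 to 7.12 with a median of 4.03.

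**Figure D2:**
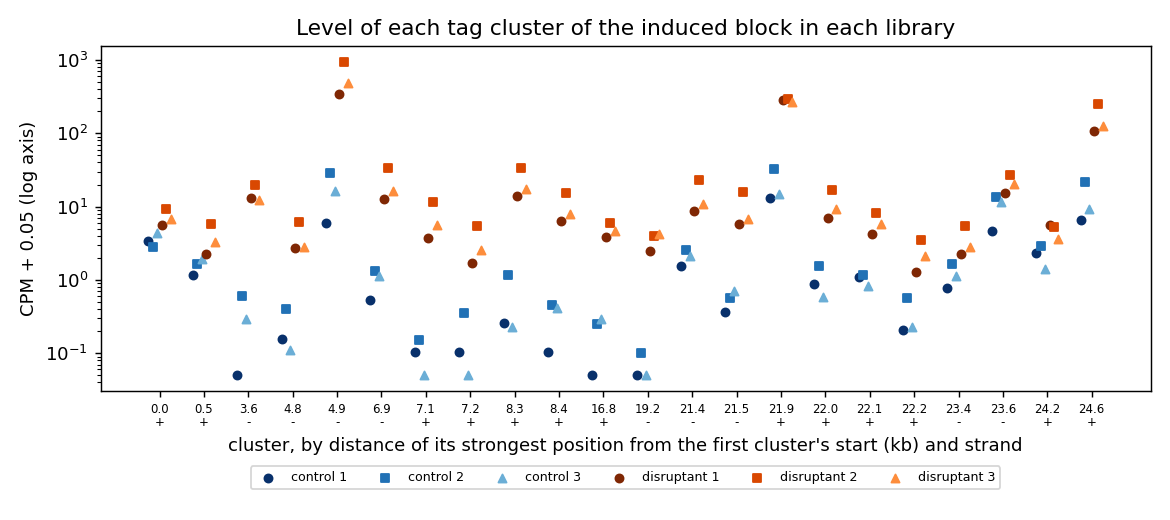
CPM (0.05 added, log axis) of each of the 22 tag clusters of the induced block in each of the 6 libraries, ordered along the scaffold, with distance in kb from the first cluster's start and strand under each. Every orange point (disruptant) lies above every blue point (control) of its cluster, and control 2 is the highest control in 18 clusters.

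A few start sites carried most of the block's tags. The cluster at 130585 to 130738 on the minus strand had 5.85, 28.6 and 16.2 CPM in controls 1, 2 and 3 and 347, 949 and 486 CPM in disruptants 1, 2 and 3. Each disruptant was above each control, with a 35.2-fold difference of means (log2 fold change 5.14, SE 0.63). It was a sharp start: 56.6% of its tags fell on the single position 130637, and this position was the strongest in each of the 6 libraries. This cluster made up 21.0% ± 6.18 of the block's tags in the controls and 47.6% ± 6.87 in the disruptants (SD, n = 3). The next strongest, at 147402 to 147662 on the plus strand, had 13.0, 32.2 and 14.8 CPM in the controls and 282, 294 and 266 CPM in the disruptants. Its means differed 14.0-fold (log2 fold change 3.81, SE 0.36), and its share of the block's tags was 27.0% ± 4.33 in controls and 25.3% ± 8.10 in disruptants (SD, n = 3). Its strongest position, 147622, was again shared by all 6 libraries, although its tags were spread widely, with 80% of them within 160 bp. Next came the cluster at 150314 to 150457 on the plus strand, the last of the block. It had 6.48, 21.7 and 9.23 CPM in the controls and 107, 247 and 125 CPM in the disruptants, a 12.8-fold difference of means (log2 fold change 3.67, SE 0.51).

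Merging clusters of a strand at most 2000 bp apart gave 157 loci on the scaffold and 8 in the block. The block's edges were set by a run of adjacent loci called higher by at least 1 on the log2 scale. All 8 therefore meet this condition by definition, and the next locus on each side fails it. Over all tested loci 4.23% met it. Along the scaffold their log2 fold changes were 1.03 (SE 0.26), 4.999 (SE 0.62), 5.29 (SE 0.59), 4.89 (SE 0.53), 7.03 (SE 0.62), 1.72 (SE 0.38), 3.65 (SE 0.35) and 3.37 (SE 0.46), ordered by their first position. The values were small at the first locus, highest in the middle and mixed toward the far end, where a locus of small change on the minus strand lies among plus-strand loci of large change.

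The first locus, 125712 to 126210 on the plus strand, changed little. Its stronger cluster, at 125712 to 125794, had 3.37, 2.75 and 4.31 CPM in the controls and 5.58, 9.28 and 6.75 CPM in the disruptants, a 2.07-fold difference of means. It was not called in the edgeR fit and was called by DESeq2, with library size alone, with the library set as a covariate and without control 3. The second locus, 129318 to 132652 on the minus strand, holds the strong cluster at 130585 and began with a cluster at 129318 to 129346 that went from 0.27 ± 0.28 to 14.9 ± 3.96 CPM (SD, n = 3). The third locus, 132811 to 134126 on the plus strand, starts next to the last minus-strand cluster of the second. The strongest positions of these divergent neighbours, 132615 and 132838, are 223 bp apart, and both clusters were called higher (log2 fold changes 4.45, SE 0.49, and 6.82, SE 0.72). The plus-strand member held 3 control tags in all and 326 disruptant tags, a ratio of 123 with a 95% counting interval of 41.7 to 599. The strongest cluster of the third locus, 134007 to 134027, had 0.21, 1.12 and 0.18 CPM in the controls and 13.8, 33.7 and 17.1 CPM in the disruptants, a 42.8-fold difference of means.

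No cluster lies between 134127 and 142472, a gap of 8346 bp. Beyond it came the weakest loci of the block. The cluster at 142473 to 142497 on the plus strand had 0, 4 and 4 tags in the controls and 74, 91 and 67 tags in the disruptants. The cluster at 144939 to 144940 on the minus strand had 0, 1 and 0 tags in the controls and 46, 60 and 61 tags in the disruptants, a ratio of 189 with a 95% counting interval of 33.5 to 7507.5. These intervals cover counting error of the summed tags and not the spread between libraries. At this start 90.5% of the tags fell on 1 position, and both of these clusters were called higher.

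At the far end of the block, loci of large and small change lay side by side. The minus-strand cluster at 147156 to 147191 and the plus-strand cluster at 147402 to 147662 are divergent neighbours whose strongest positions are 437 bp apart, and both were called higher (log2 fold changes 4.24, SE 0.51, and 3.81, SE 0.36). Farther on, the strongest cluster of the minus-strand locus, 149244 to 149316, had 4.64, 13.5 and 11.4 CPM in the controls and 15.3, 27.1 and 20.03 CPM in the disruptants. The groups were apart by a small margin, with a 2.11-fold difference of means, and this cluster was not called. In all, 5 of the block's 22 clusters were not called by edgeR, with 2.07- to 3.04-fold differences. They are the pair of the first locus, a minus-strand pair at 149134 to 149316 and a plus-strand cluster at 149931 to 149980. DESeq2 called 20 of the 22, leaving out those at 126147 to 126210 and 149244 to 149316. All 22 had an unadjusted p under 0.05 with either tool. The block was chosen by the level difference in these same libraries, so this largely follows from that choice. It gives no separate support for the 5. The 5 and the 17 called by edgeR (log2 fold changes of 2.60 to 7.12) did not overlap in fold change. The call depends on the fold change, so this partly follows from the split.

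**Figure D3:**
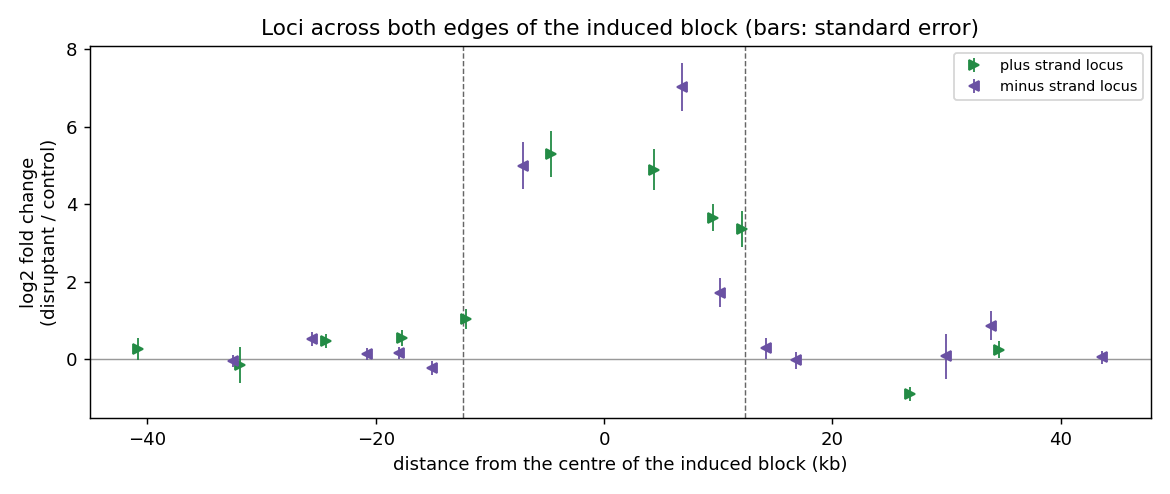
Log2 fold change (disruptant over control) of each locus within 45 kb of the block's centre, with its standard error, against distance in kb, for plus-strand and minus-strand loci. Dashed lines mark the block's first and last position. Loci outside the lines lie between -0.91 and 0.86, and the locus just inside the first line is at 1.03.

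The edges of the block differed in shape. Before the block, the cluster at 123292 to 123520 on the minus strand, 2191 bp from the block's start, had 279, 367 and 254 CPM in the controls and 264, 284 and 276 CPM in the disruptants. The groups overlapped there (log2 fold change -0.13, SE 0.20). The next clusters outward, at 120347 to 120441 on the plus strand (log2 fold change 0.64, SE 0.24) and at 120173 to 120269 on the minus strand (0.40, SE 0.22), were not called either. From this side the fold between the means went in steps, from 0.92 at that first cluster to 2.19 in the first locus of the block and 34.7 in the second. After the block, the cluster at 152244 to 152260 on the minus strand, 1786 bp from the block's end, had 1.21, 1.93 and 2.10 CPM in the controls and 2.14, 2.44 and 2.20 CPM in the disruptants. Its log2 fold change was 0.37 (SE 0.32), beside 3.67 in the block's last cluster. The next one outward, at 154881 to 154914 on the minus strand, was at 0.05 (SE 0.28). The third, at 164825 to 164922 on the plus strand, was called lower by a small step, from 40.6 ± 8.82 to 22.9 ± 2.14 CPM (SD, n = 3; log2 fold change -0.83, SE 0.21). It lost that call whichever of the 6 libraries was left out. Of the 13 clusters within 10 kb of the block's ends, 0 were called by edgeR or by DESeq2. Over all tested clusters edgeR called 8.11% in either direction, so few calls would be looked for among 13. On the log2 scale 12 of the 13 changed by less than 1, beside 82.95% of all tested clusters. At an unadjusted p under 0.05 each tool counted 1 higher and 1 lower among the 13.

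Counts of all tags in 1 kb windows, scaled by the effective library sizes of the cluster fit, gave similar limits. Walking outward from the middle, each window with at least 1 CPM had every disruptant above every control and means at least 2-fold apart from 125001 to 152000. The limits were set by this condition, so all 15 such windows inside them meet it by construction. The first, at 125001 to 126000, was close to the 2-fold minimum with means of 4.46 and 9.01 CPM. Over the scaffold 19 of 343 windows met this condition (5.54%), so 4 lay elsewhere, and 12 of 343 met it in the other direction (3.50%). With a 4-fold difference the limits were 129001 to 148000. The first locus was also the part of the run that other settings dropped. The run started at 129318 without control 1, control 2, disruptant 2 or disruptant 3, and it held 4 loci without disruptant 2 or disruptant 3, when the minus-strand locus at 147087 to 149316 lost its call and interrupted the run.

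Libraries of a genotype differed within the block in a regular way. Disruptant 2 was the highest disruptant in 20 of the 22 clusters, and its level was 0.92 to 3.24 times that of disruptant 1, with a median of 2.37. The strong plus-strand cluster at 147402 was the exception among the large ones: its disruptants were within 266 to 294 CPM. Among the controls, control 2 was the highest in 18 of the 22 clusters and control 1 in 0. The order of the controls was not that of clusters called higher on other scaffolds, of which control 2 was the highest control in 22.3% and disruptant 2 the highest disruptant in 66.5%. The median biological coefficient of variation of the block's clusters was 0.36, beside 0.26 over the clusters in neither stretch. Runs of 3 or more adjacent called loci were counted on 23 scaffolds of the table. In another run of 8 loci that were higher in the disruptant, on scaffold DF126449.1, controls 1, 2 and 3 had 49.3, 66.0 and 63.3 CPM. Disruptants 1, 2 and 3 had 825, 1471 and 943 CPM there. Disruptant 2 was the highest disruptant in 13 and control 2 the highest control in 9 of its 16 clusters. The difference between the scaffolds was not tested.

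**Figure D4:**
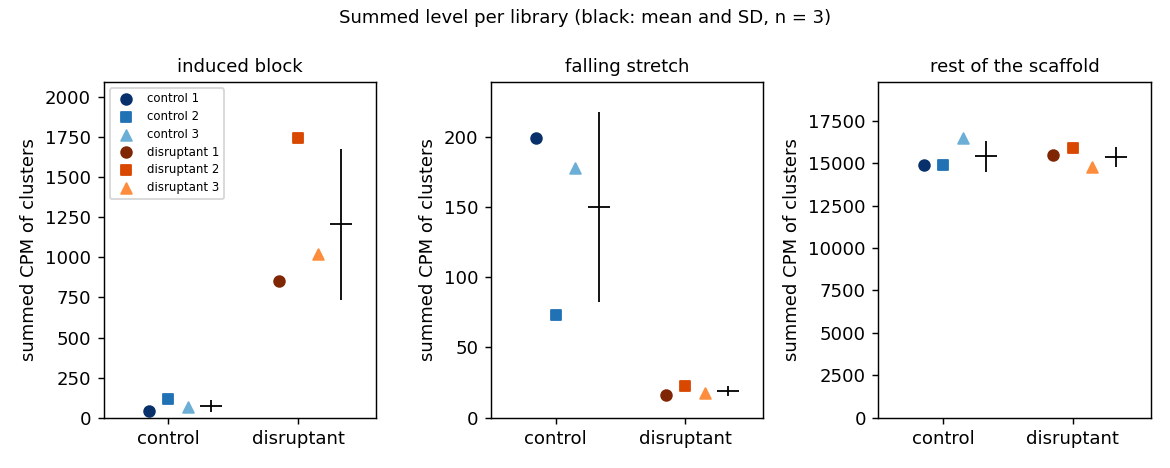
Summed CPM of the clusters in the induced block, in the falling stretch and in the rest of the scaffold for each library, with the mean and SD of each group in black (n = 3). The genotypes are apart in the first and second panels, with control 2 nearest to the disruptants in both, and overlap in the third.

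Start positions were compared only where each of the 6 libraries had 10 tags or more, a condition that leaves out the clusters that were nearly silent in the controls. It was met by 10 of the block's 22 clusters. In 5 of these 10 the strongest position was the same in the pooled controls and the pooled disruptants, and the largest distance was 30 bp. Of 377 clusters in neither stretch, 307 (81.4%) had the same strongest position. The block's clusters with a different one were weak or broad, such as that at 125712 to 125794, where the strongest position held 8.77% of the tags. The 3 strongest clusters of the block, at 130585, 147402 and 150314, had the same one in both groups.

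The second stretch, at 325445 to 333649, was picked out after its values were seen, as the span of all clusters of the scaffold called lower with a log2 fold change of -3 or below. It holds 14 clusters, 7 on each strand. Their summed level was 199, 72.8 and 178 CPM in controls 1, 2 and 3 (mean 150.0 ± 67.7, SD, n = 3) and 16.4, 22.8 and 17.6 CPM in disruptants 1, 2 and 3 (mean 18.9 ± 3.41, SD, n = 3). The lowest control was 3.20-fold above the highest disruptant, and the means differed 7.94-fold. All tags of the stretch, which include part of a strong plus-strand cluster that reaches into it, differed less, with 252 ± 77.2 CPM in controls and 84.1 ± 14.3 CPM in disruptants (SD, n = 3), 2.99-fold. Of the 14 clusters, 9 were called lower and 0 higher, and in 10 every disruptant was below every control, beside 13.0% of all tested clusters. The 5 clusters that were not called had log2 fold changes of -0.85 to 0.62. So clusters called lower lay together at the start of this stretch, and farther on they were mixed with clusters of small differences.

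**Figure D5:**
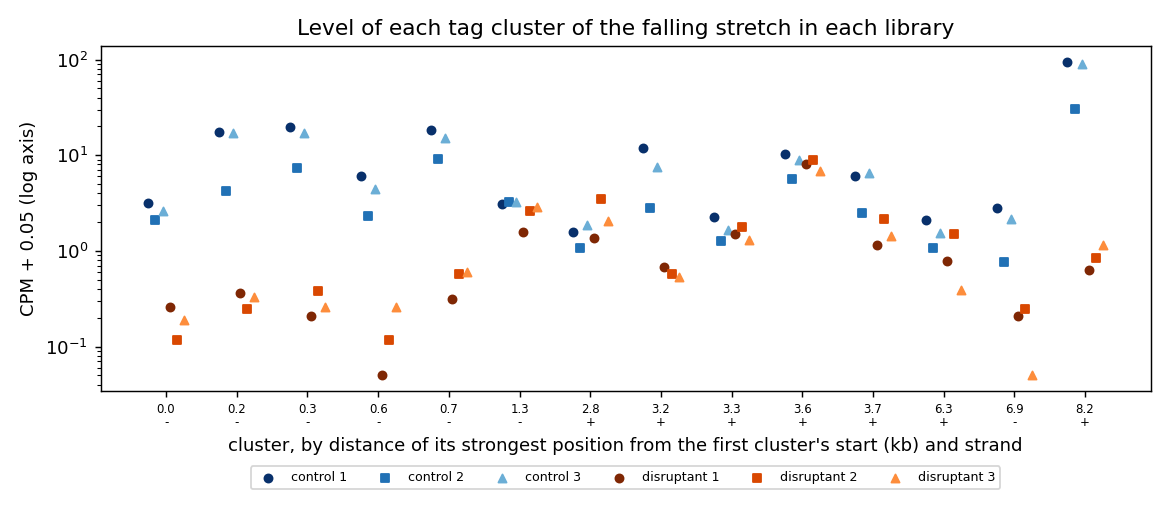
CPM (0.05 added, log axis) of each of the 14 tag clusters of the falling stretch in each of the 6 libraries, ordered along the scaffold, with distance in kb from the first cluster's start and strand under each. The disruptants (orange) are far below the controls (blue) at the first 5 clusters and at the last, and the genotypes overlap or nearly meet at several clusters between them.

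The largest fall on the scaffold was at 333590 to 333649 on the plus strand. This cluster had 95.1, 30.1 and 89.1 CPM in controls 1, 2 and 3 and 0.57, 0.79 and 1.10 CPM in disruptants 1, 2 and 3. Every control was far above every disruptant, and the means differed 86.9-fold (log2 fold change -6.45, SE 0.53). At the other end of the stretch, 5 minus-strand clusters lay within 325445 to 326171, all called lower. Of these, the cluster at 325706 to 325808 had 19.8, 7.23 and 17.0 CPM in the controls and 11 tags in all in the disruptants, a ratio of 64.4 with a 95% counting interval of 35.8 to 129. The cluster at 325601 to 325676 went from 12.8 ± 7.46 to 0.26 ± 0.06 CPM, and that at 326059 to 326171 from 14.1 ± 4.58 to 0.45 ± 0.16 CPM (SD, n = 3). On the plus strand, the cluster at 328675 to 328710 had 12.0, 2.75 and 7.43 CPM in the controls and 0.63, 0.53 and 0.48 CPM in the disruptants, a 13.6-fold difference of means.

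Some neighbours of the called clusters were not called. The minus-strand cluster at 325445 to 325487 was itself called lower, with 142 tags over the controls and 7 over the disruptants. Its ratio was 17.9, with a 95% counting interval of 8.48 to 45.4. It lies within the span of the strong plus-strand cluster at 325291 to 325489, which had 434, 391 and 346 CPM in the controls and 306 to 366 CPM in the disruptants. The libraries of that plus-strand cluster overlapped (log2 fold change -0.20). On the plus strand, the cluster at 328999 to 329055 had 10.2, 5.55 and 8.87 CPM in the controls and 7.98, 8.82 and 6.82 CPM in the disruptants, also overlapping, although it lies next but one to the cluster at 328675 to 328710 that fell. Beyond the last cluster of the stretch, the next were at 335688 on the minus strand and 336146 on the plus strand, with log2 fold changes of 0.16 and -0.38, neither of them called. The one after, a weak cluster at 336307 to 336330 on the plus strand, was called lower, from 1.72 ± 0.48 to 0.40 ± 0.23 CPM (SD, n = 3). At the locus scale 2 loci inside the stretch were called lower by at least 1 on the log2 scale, beside 3.83% of all tested loci. These, at 331713 to 333649, which holds the largest fall, and at 332322 to 332329, formed a run. The locus at 328259 to 329149 in the stretch was not called (log2 fold change -0.89, SE 0.30). A further locus called lower, at 325187 to 326721, starts before the stretch and reaches into it.

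Control 2 departed from its group here as well. It was the lowest control in 13 of the 14 clusters, where it was the highest control in 18 of 22 clusters of the induced block. Its level was 0.23 to 1.03 times that of control 1 over the 14 clusters, with a median of 0.45. In both stretches control 2 was thus the control nearest to the disruptant level. Among the clusters called lower on other scaffolds, control 2 was the lowest control in 23.9% and the highest in 48.7%. Without control 2 the counts of called clusters were as with it, 9 lower in the stretch and 17 higher in the block. The median log2 fold change of the block's clusters was larger, 4.34 in place of 4.025. The summed level then differed 22.2-fold in place of 16.2-fold. The log2 fold changes were 5.76 in place of 5.14 at 130585, 6.72 in place of 5.36 at 134007 and 4.34 in place of 3.67 at 150314. For the loci from 129318, 132811 and 149931 they were 5.64, 6.40 and 3.99 in place of 4.999, 5.29 and 3.37. The first locus, from 125712, went the other way, with 0.95 in place of 1.03, and was no longer called. The cluster at 144939 had no tag in the remaining controls. In these named clusters and loci of the block, leaving out any other single library moved the fold by less than 1.5 times.

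The strongest start sites of the scaffold lay outside both stretches and were not called. The cluster at 493728 to 493847 on the plus strand had 1455, 1273 and 2203 CPM in the controls and 1336, 1591 and 1385 CPM in the disruptants, with overlapping groups (log2 fold change -0.19, SE 0.25). The next 4 by level, at 356652, 279452, 296245 and 252255 on the plus strand, had log2 fold changes of -0.09, -0.08, 0.56 and -0.21. Of these, the cluster at 296245 to 296313 had every disruptant above every control, 522, 534 and 813 CPM against 840, 990 and 928 CPM, and was not called. The cluster at 279452 to 279498 was the sharpest of them, with 98.0% of its tags on 1 position. The summed level of all clusters in neither stretch was overlapping between the genotypes, and that of all clusters outside the induced block was 15558 ± 949 CPM in controls and 15404 ± 592 CPM in disruptants (SD, n = 3).

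Among the 410 clusters in neither stretch, 7 were called higher, beside 4.1% of all tested clusters, and 10 lower, beside 4.0%. These counts changed when single libraries were left out, as did the calls over the whole table. The latter were 1768 with all 6 libraries and 745 (without disruptant 3) to 2254 (without control 3) with 1 left out. The higher and lower clusters in neither stretch were 2 and 3 without control 1, 3 and 2 without control 2, and 13 and 17 without control 3. They were 5 and 4 without disruptant 1, 3 and 3 without disruptant 2, and 1 and 1 without disruptant 3. DESeq2 called 16 higher and 18 lower, and edgeR with the replicate number as a block called 2 and 4. The higher ones had log2 fold changes of 1.00 to 1.80. The strongest rise among those with at least 5 CPM was at 293674 to 293704 on the minus strand, with 4.85, 3.36 and 4.25 CPM in the controls and 10.8, 11.3 and 11.4 CPM in the disruptants. Its groups were well apart, with a 2.69-fold difference of means (log2 fold change 1.42, SE 0.23). Others at 431537, 401616 and 398256 on the minus strand rose 2.41-, 2.23- and 2.00-fold. The call at 398256 was lost whichever of the 6 libraries was left out, that at 431537 without control 1, control 2, disruptant 2 or disruptant 3, and that at 401616 without control 1 or disruptant 3. The 10 lower clusters had log2 fold changes of -2.20 to -0.83. The cluster at 361597 to 361647 on the plus strand fell from 10.01, 12.7 and 16.3 CPM in the controls to 1.77, 3.23 and 4.41 CPM in the disruptants, a 4.15-fold difference of means (log2 fold change -2.06, SE 0.36).

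Clusters near the minimum of 1 CPM show how the members were cut. The pair just inside it were at 359301 on the minus strand, with 0.57 to 1.32 CPM per library, and at 200198 to 200200 on the plus strand, with 0.34 to 1.99 CPM. The pair just outside it, both at 0.99 CPM over all libraries, were at 246335 to 246354 on the minus strand and at 227515 to 227521 on the plus strand. Below the minimum the scaffold held 928 further clusters, 17 of them in the induced block and 27 in the falling stretch.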

How the data were processed

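The authors deposited raw CAGE tag counts per start position and strand, with no scaling, for the 6 libraries. FastQC, BWA and bedtools are named in the submitters' processing notes without role or version. The genome build, and how tags with several matches were handled, are not given in the sources used here. Positions count from 0 in the table and were shifted to count from 1.

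Pooled over the libraries, positions reaching 0.1 CPM were joined across gaps of up to 20 bp on the same strand. A cluster was kept if it reached 1 CPM with all tags of its span. The clusters held 94.2% of all tags. Same-strand clusters with up to 2000 bp between them formed 8403 loci. Counts of all clusters, or of all loci, were fitted with edgeR 4.0.16 in R 4.3.3 (TMM, filterByExpr, quasi-likelihood F test, Benjamini-Hochberg adjustment). This tested 21803 clusters and 8400 loci. CPM was computed with the cluster fit's effective library sizes, also for loci and windows. Standard errors (SE) were derived from each log2 fold change and its F value. Width is the span between the 10th and 90th percentiles of tags. Counting intervals are exact (Clopper-Pearson) at 95%. The labels name no molecular identifiers, so intervals and the limit of 3 tags cover counting error only.

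On counts simulated for 21824 clusters with 200 changed, the cluster test called 5.5% of those with a simulated log2 change of 1. It called 89.5% with 2 and 98% with 3, and false calls were 0, 5 and 14. All simulated clusters shared a biological coefficient of variation of 0.295. The observed medians were 0.36 in the block and in the falling stretch and 0.26 in neither stretch, so the recovery may differ there. Members, lists and the block were chosen with earlier results of these data known. The text names the strongest cluster of each locus of the block, of the 3 loci on each side, the 5 strongest clusters elsewhere, and elsewhere up to 6 called rises and 6 called falls of at least 5 CPM without overlap. It also names the clusters at the 1 CPM minimum. Neighbours named besides were chosen after their values were seen. Alternatives covered scaling, filters, DESeq2 1.42.0, covariates, cluster and locus definitions, window sizes and leaving out each library.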

Additional observations from a re-analysis of the deposited data

Results flagged for a closer look

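Tags that belong to no cluster of the comparisons also differed inside the induced block. The 17 clusters under 1 CPM there summed to 1.11, 2.04 and 1.80 CPM in controls 1, 2 and 3 and to 7.04, 14.3 and 8.54 CPM in disruptants 1, 2 and 3, with a disruptant mean of 9.96 CPM. Every disruptant was above every control, and 16 of the 17 were higher on average in the disruptant. These clusters were formed from tags pooled over all libraries, and the control mean of their sum was 1.65 CPM. They thus entered mainly through disruptant tags, in a block chosen as higher in the disruptant. The difference therefore largely follows from how they were chosen. In the gap of 8346 bp without clusters, controls 1, 2 and 3 had 0, 0.15 and 0.18 CPM and disruptants 1, 2 and 3 had 2.92, 8.30 and 4.27 CPM, with a disruptant mean of 5.16 CPM. Each control value in the gap is at or under the limit of 3 tags. Over the clusters under 1 CPM in neither stretch, controls had 284 ± 28.4 and disruptants 244 ± 2.37 CPM (SD, n = 3). Whether the weak tags stem from the strong start sites nearby was not tested.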

How the results depend on the processing

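Of the counts and totals, 108 recomputed values stayed the same within 1.5 times or 1 SD and 43 moved; of single named clusters, 446 kept their call, 31 lost and 6 gained it, and 0 reversed. The 24 higher clusters became 11, the 17 in the block 5, the 19 lower 11, the 9 in the falling stretch 2 and the 8 loci 5 with at least 10 tags in every library, where the clusters nearly silent in a group are not tested. With positions of at least 0.5 CPM, lower clusters were 9, those in the stretch 4, and the loci 5, from 129333 to 147727. Joining positions up to 50 bp apart gave 12 lower clusters, 5 of them in the stretch. At an adjusted p under 0.01 there were 8 lower clusters and 4 loci, from 129318 to 144940. Same-numbered libraries' deviations from group means had correlations of 0.48, -0.41 and -0.10, so the numbers were not taken to pair samples. With the replicate block there were 12 lower and 20 higher clusters, with loci from 129318. The library set as a covariate gave 28 lower and 35 higher clusters, also with loci from 129318, and DESeq2 gave 27 and 36. Loci merged at most 500 bp apart ended at 147919. Leaving out each library gave 8 to 25 lower clusters, 4 to 8 loci, starts of 125712 to 129318, ends of 144940 to 150457, and a fold outside the block of 0.97 to 1.03 (0.99 with all). That fold was 1.04 with library size alone and 1.03 and 0.92 within the library sets. Windows of 500 bp gave 125501 to 151500, of 2000 bp a start of 124001, of 5000 bp an end of 155000, and 4-fold differences 129001 to 148000. The cause was not tested. The stretch's counts were examined after seeing the data. Simulated log2 changes of 1 were called in 5.5% of cases, so weak changes along the scaffold may be missed.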
